A study of Homo sapiens with 3 samples.

Results

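The genes examined here are 10 members of the intermediate filament family that were picked by name: the simple epithelial keratins KRT8, KRT18, KRT7 and KRT19, the mesenchymal and stellate cell filament genes VIM, DES, GFAP and NES, and the nuclear lamin genes LMNA and LMNB1. All 10 had 1 row each among the 26108 rows of the deposited table. They were measured by poly(A) mRNA sequencing in LX-2 cells, an established human hepatic stellate cell line, after vehicle or after recombinant human FGF19 (rhFGF19) at 50 or 100 ng/mL. There was 1 library for each of the 3 conditions, so no comparison has a replicate check and no p-value can be given. The doses follow the titles of the samples; a description field of the records exchanges them and gives 72 and 73 h of stimulation, whereas the series gives 24 h. The rhFGF19 libraries are called the lower and the higher dose, and where 3 values follow each other they are vehicle, lower dose and higher dose. The genes were picked with the FPKM of these libraries known, so their levels and differences are a description of 1 cell line, and nothing in the records says whether the libraries came from separate cultures.

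Intermediate filaments are rope-like polymers that give cells mechanical strength. Keratins are obligate partners: a type I chain such as keratin 18 or 19 pairs with a type II chain such as keratin 8 or 7, and the 8/18 pair is the first keratin pair of simple epithelia, including hepatocytes, while keratins 7 and 19 mark bile duct cells in liver. Vimentin, desmin and glial fibrillary acidic protein are type III filaments, and nestin is a larger filament protein of progenitor and activated mesenchymal cells. Desmin and glial fibrillary acidic protein are classical stains for hepatic stellate cells, and vimentin is the filament of mesenchymal cells in general. Lamins A/C and B1 form the meshwork under the nuclear envelope.

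LX-2 cells of the vehicle library held vimentin and simple epithelial keratin mRNA at similar levels per transcript length, and held next to no desmin, glial fibrillary acidic protein, nestin or keratin 19 mRNA. In both rhFGF19 libraries the 3 measurable simple epithelial keratins were lower than in vehicle, at 58.5% to 67.7% of its level, VIM was higher by 1.49-fold and 1.48-fold, LMNA was lower and LMNB1 was higher by 2.29-fold and 2.23-fold. The median of all tested genes was itself higher than vehicle, by 0.62 on the log2 scale at each dose. More than 2-fold higher were 39.5% of the tested genes at 50 ng/mL and 38.6% at 100 ng/mL. All these values are ratios of single libraries, and in bulk RNA fewer cells with a transcript and less of it in each cell cannot be told apart.

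Sequences are given for some of the genes on which the results turn, because their base composition differed. Over all tested genes, fold changes tended to be lower at higher GC content, although single genes departed from this. That trend was computed on the median GC content of whole transcripts, not on the coding sequences shown here. The middle 30 codons of the coding sequence are shown for a type I keratin, vimentin and lamin B1, from the principal transcript in GENCODE v29. They are written 5′ to 3′, and capitals mark a G or C at the third position of a codon.
KRT18: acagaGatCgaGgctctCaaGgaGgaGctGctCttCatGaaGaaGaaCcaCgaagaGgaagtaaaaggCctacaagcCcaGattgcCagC
VIM: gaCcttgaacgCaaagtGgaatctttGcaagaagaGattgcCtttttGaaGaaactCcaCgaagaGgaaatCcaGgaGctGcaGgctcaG
LMNB1: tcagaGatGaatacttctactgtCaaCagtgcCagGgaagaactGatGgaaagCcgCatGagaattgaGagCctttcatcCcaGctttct
G or C closed 21 of the codons shown for KRT18, 17 for VIM and 15 for LMNB1. Over the whole coding sequence, GC content was 58.4% for KRT18, 59.4% for KRT8, 56.7% for VIM, 63.4% for LMNA and 50.8% for LMNB1. At the third codon position it was 75.8%, 83.0%, 71.5%, 80.1% and 54.6%, respectively. The stretches span coding bases 601 to 690 of KRT18, 655 to 744 of VIM and 835 to 924 of LMNB1.

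Values are FPKM, fragments scaled for transcript length and for the mapped fragments of the library, given to 2 decimals. Changes were computed from log2(FPKM + 0.1), which shrinks the changes of poorly expressed genes, in the 12422 gene symbols that averaged 0.5 FPKM or more over the 3 libraries. Of the 10 members, 6 passed that filter, and KRT19, DES, GFAP and NES did not. FPKM sums were 302243 in vehicle, 276690 at the lower dose and 281606 at the higher dose, and FPKM gives no read counts, so the depth behind each value is unknown. The tested genes as a whole were shifted against vehicle, with a median of 0.62 on the log2 scale at each dose. Vehicle also listed fewer genes: 8891 symbols had at least 1 FPKM, against 10929 at the lower dose and 10905 at the higher dose. Symbols at 0 FPKM numbered 4716 in vehicle, 3208 at the lower dose and 3218 at the higher dose. The 2 rhFGF19 libraries, which differ in dose and are not replicates, lay within 0.14 log2 units of each other for 95% of the 972 genes averaging 50 FPKM or more and within 0.22 for 95% of the 5620 genes averaging 5 FPKM or more.

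KRT18 (ENSG00000111057, GRCh38 chromosome 12 from 52948871 to 52952900, plus strand), the type I partner of keratin 8, had 382 FPKM in vehicle, 226 at the lower dose and 224 at the higher dose. Its log2 fold changes were -0.76 and -0.77, and it was at 59.1% and 58.5% of vehicle. Vehicle was the high library, and the rhFGF19 libraries were almost equal. KRT8 (ENSG00000170421, chromosome 12 from 52897187 to 52949920, minus strand), the type II partner, had 121 FPKM in vehicle, 81.9 at the lower dose and 78.5 at the higher dose. Its log2 fold changes were -0.56 and -0.62. The KRT18 value was 3.16 times that of KRT8 in vehicle, 2.76 times at the lower dose and 2.85 times at the higher dose, so both chains of the pair were lower in the rhFGF19 libraries and their ratio moved less than either level.

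KRT7 (ENSG00000135480, chromosome 12 from 52232520 to 52252186, plus strand), a type II keratin of ducts and glands, was far lower than the 8/18 pair, with 6.97 FPKM in vehicle, 4.46 at the lower dose and 4.28 at the higher dose. Its log2 fold changes of -0.63 and -0.69 lay between those of KRT8 and KRT18. KRT19 (ENSG00000171345, chromosome 17 from 41523617 to 41528308, minus strand), a type I keratin of bile duct cells, was listed at 0.11, 0.09 and 0.00 FPKM in vehicle, lower and higher dose. At that level no direction can be read for KRT19. The 3 keratins that passed the filter were lower in both rhFGF19 libraries, with a median log2 fold change of -0.63 at the lower dose and -0.69 at the higher dose. Of all tested genes, 31.8% were lower in both libraries. By the GC content of their transcripts, these 3 keratins lie over 55 and up to 60%. Among tested genes in that range, 62.6% were lower on the average of both doses.

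**Figure D1:**
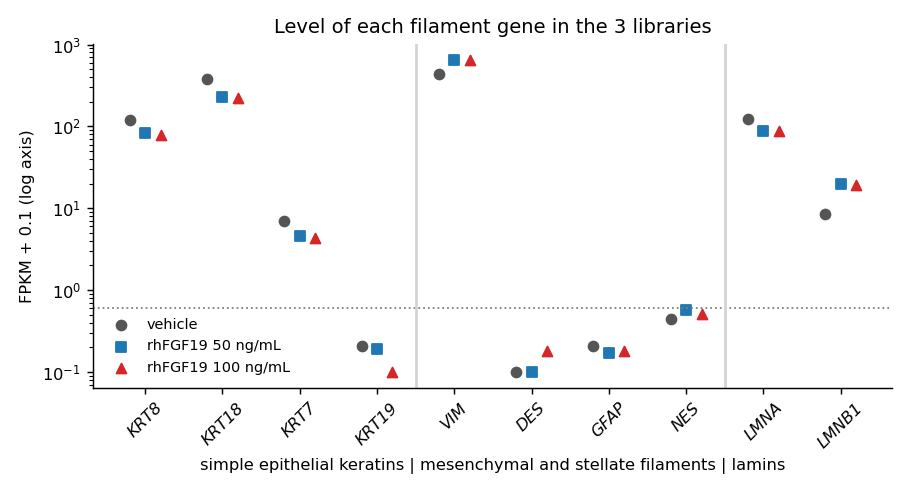
FPKM + 0.1 on a log axis (y) for each of the 10 filament genes (x), with 1 point per library and no error bars, since each condition had 1 library; the dotted line marks the filter of 0.5 FPKM. KRT8, KRT18, KRT7 and LMNA are highest in vehicle, VIM and LMNB1 are lowest there, and KRT19, DES, GFAP and NES lie under the line in every library.

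Some keratin reads could be placed at more than 1 locus. KRT8 and KRT18 lie next to each other on opposite strands, and their rows share 1050 bases, with no strand setting of the libraries given in the sources used here. KRT7 shares 2887 bases with KRT86 on its own strand and 1721 bases with KRT87P on the other. Processed pseudogenes of KRT8 had 17 rows, which summed to 4.06, 4.25 and 3.57 FPKM in vehicle, lower and higher dose, at most 5.19% of KRT8. The highest of them were KRT8P12, with 1.26, 1.51 and 1.63 FPKM, and KRT8P3, with 1.65, 0.95 and 0.72 FPKM. Those of KRT18 had 21 rows and summed to at most 0.371% of KRT18. With the pseudogene rows added, the averaged log2 fold change was -0.57 for KRT8 and -0.76 for KRT18.

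VIM (ENSG00000026025, chromosome 10 from 17228241 to 17237593, plus strand) was the highest of the 10 members in every library, with 439 FPKM in vehicle, 654 at the lower dose and 649 at the higher dose. Its log2 fold changes were 0.58 and 0.56, close to the median of all tested genes, of which 63.3% were higher than vehicle in both libraries. It stood at rank 97 of 24254 symbols in vehicle and at ranks 42 and 45 in the rhFGF19 libraries, while KRT18 went from rank 114 to 155 and 156. VIM-AS1, an antisense transcript whose row shares 1745 bases with VIM, was listed at 0.13, 0.47 and 0.55 FPKM.

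The filaments by which stellate cells are usually recognised were at the floor of the table. DES (ENSG00000175084, chromosome 2 from 219418377 to 219426734), the muscle and stellate cell type III filament, was listed at 0.00 FPKM in vehicle and at the lower dose and at 0.08 at the higher dose. GFAP (ENSG00000131095, chromosome 17 from 44903159 to 44916937), the astrocyte and stellate cell filament, was listed at 0.11, 0.07 and 0.08 FPKM. NES (ENSG00000132688, chromosome 1 from 156668763 to 156677407) was the nearest to the filter, at 0.34 FPKM in vehicle, 0.47 at the lower dose and 0.41 at the higher dose. None of these values supports a direction, and GFAP shares part of its row with CCDC103 and FAM187A, which were each listed above 1 FPKM. The comparison of mesenchymal filaments with simple epithelial keratins is therefore a comparison of VIM with KRT8, KRT18 and KRT7.

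The order of the levels was VIM, KRT18, LMNA, KRT8, LMNB1 and KRT7 in each of the 3 libraries. In vehicle VIM and KRT18 were 0.20 apart on the log2 scale, which widened to 1.53 at the lower dose and 1.53 at the higher dose. LMNA and KRT8 were 0.024, 0.099 and 0.15 apart in vehicle, lower and higher dose. No spread is known for a difference between genes within a library, so the order of these neighbours is not certain. LMNB1 and KRT7 were 0.28 apart in vehicle and 2.11 and 2.13 apart in the rhFGF19 libraries. The VIM value was 1.15 times that of KRT18 in vehicle and 2.90 times in both rhFGF19 libraries.

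Within the summed FPKM of 37 cytoplasmic filament genes (26 keratins and 11 others), the 26 keratins made up 63.3% in vehicle, 42.1% at the lower dose and 42.6% at the higher dose. VIM made up 36.4%, 57.3% and 56.9% of the same sum. The sum itself was 1205 FPKM in vehicle, 1141 at the lower dose and 1139 at the higher dose. The exchange of shares was thus carried by VIM on one side and by KRT18, KRT8 and the hair keratin KRT81 on the other. Shares within a library do not depend on a factor common to all its genes, but a shift that follows base composition does alter them. With the trend on GC content removed, the averaged log2 fold change went from 0.57 to 0.11 for VIM and from -0.77 to -0.67 for KRT18. It went from -0.59 to -0.40 for KRT8 and from -0.68 to -0.26 for KRT81.

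**Figure D2:**
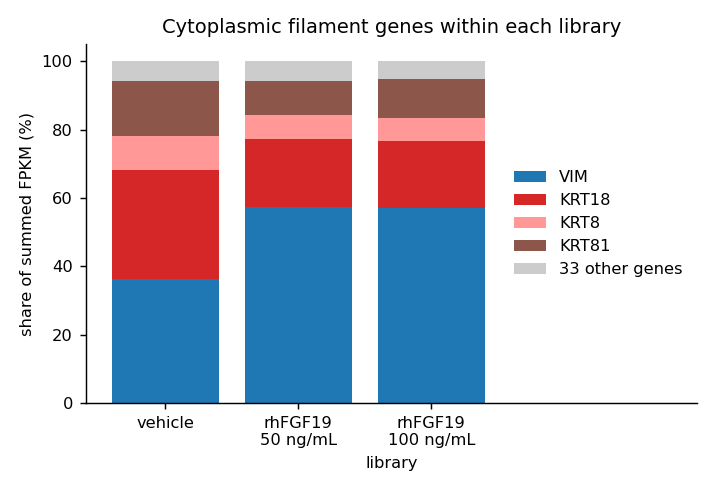
Share of the summed FPKM of 37 cytoplasmic intermediate filament genes (y, %) in each of the 3 libraries (x), stacked by gene, with the 33 genes outside VIM, KRT18, KRT8 and KRT81 pooled. The VIM share is 36.4% in vehicle and above 56% in both rhFGF19 libraries, and the KRT18 share is 31.7% in vehicle and below 20% in both.

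The lamin genes lay on opposite sides of vehicle. LMNB1 (ENSG00000113368, chromosome 5 from 126776623 to 126837020), the B-type lamin associated with proliferating cells, had 8.49 FPKM in vehicle, 19.6 at the lower dose and 19.1 at the higher dose, with log2 fold changes of 1.20 and 1.16. It was the 1 member more than 2-fold higher, where 39.5% of all tested genes passed that mark at the lower dose, 38.6% at the higher dose and 36.3% at both. No member was more than 2-fold lower, where 1.75% and 1.47% of all tested genes were, and 0.636% at both doses. With the GC trend removed, or with the median ratio to vehicle set to 0, LMNB1 did not pass that mark. That ratio was taken over symbols of at least 1 FPKM in every library. The median of all genes passing the filter therefore stayed at 0.39 at each dose under that setting. LMNA (ENSG00000160789, chromosome 1 from 156082573 to 156140081), which encodes lamins A and C, had 123 FPKM in vehicle, 87.7 at the lower dose and 87.2 at the higher dose, with log2 fold changes of -0.49 and -0.50. LMNB2, a B-type lamin that was not among the 10 members, was almost level at 71.0, 76.1 and 75.5 FPKM; its averaged log2 fold change was 0.095, and 0.59 with the GC trend removed but -0.33 with the length trend removed. The LMNA value was 14.5 times that of LMNB1 in vehicle, 4.48 times at the lower dose and 4.57 times at the higher dose.

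All 6 measurable members had nearly the same value at both doses. The largest difference between the doses was -0.061 on the log2 scale, for KRT8, and the smallest was -0.0086, for LMNA. None was more than 2-fold apart, where 0.845% of all tested genes were higher and 0.797% lower at the higher than at the lower dose. Both comparisons with vehicle share the single vehicle library.

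Base composition moved with these results. Across 12397 tested genes with a transcript in GENCODE v29, the fold change against vehicle was lower the higher the median GC content of the gene's transcripts, with a Spearman correlation of -0.77 at each dose, over genes that share the same 3 libraries. The members' transcripts had a GC content of 47.7% for LMNB1, 52.2% for VIM, 57.0% for KRT18, 58.1% for KRT8, 58.7% for KRT7 and 61.3% for LMNA. Genes over 45 and up to 50% GC had a median shift of 1.09 on the log2 scale at the lower dose, and those over 60% had -0.50.

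Set beside genes whose GC content was within 1 percentage point of their own, the lamins and VIM lay nearer to the typical value than the keratins did. LMNB1 (1.20 against a median of 1.08 over 927 genes), VIM (0.58 against 0.47 over 897 genes) and LMNA (-0.49 against -0.46 over 817 genes) were near such genes at the lower dose. KRT18 (-0.76 against -0.16 over 915 genes) and KRT8 (-0.56 against -0.24 over 919 genes) were lower than them. KRT7 (-0.63 against -0.31 over 938 genes) was lower as well. The genes compared were matched for GC content alone and not for level. KRT18 and KRT7 lay under the lower quartile of these genes, at -0.50 and -0.62, while KRT8 lay just inside it, at -0.57; at the higher dose all 3 keratins lay under it. With a loess trend on GC content removed, the log2 fold changes averaged over both doses were -0.67 for KRT18, -0.42 for KRT7, -0.40 for KRT8, -0.11 for LMNA, 0.11 for VIM and 0.16 for LMNB1. The part of base composition in the differences was not tested beyond these values.

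**Figure D3:**
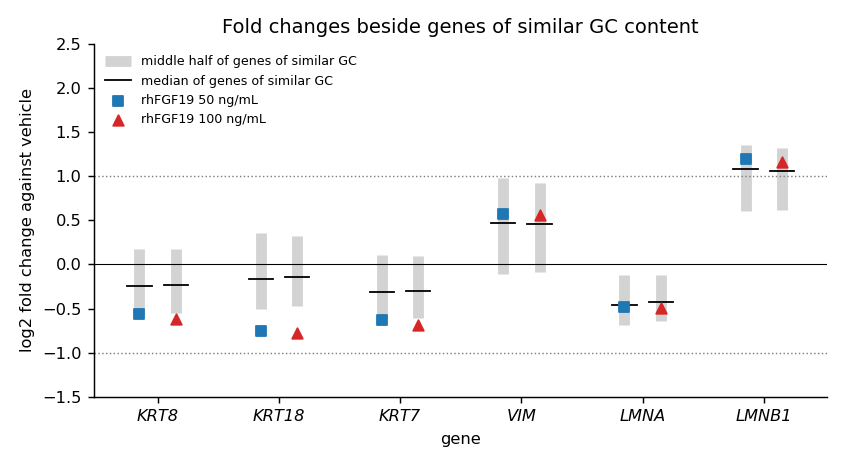
Log2 fold change against vehicle (y) of the 6 filament genes that passed the filter (x) in the lower-dose (squares) and higher-dose (triangles) libraries, with the median (line) and the middle 50% (grey bar) of genes whose GC content was within 1 percentage point; dotted lines mark 2-fold. KRT18 lies under its grey bar at both doses, whereas VIM, LMNA and LMNB1 lie near their lines.

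Other keratins were expressed in LX-2 cells as well. Of 22 further keratin genes, 9 passed the filter, 6 of them were lower than vehicle in both rhFGF19 libraries and none was higher in both. Of all tested genes 31.8% were lower in both, and on the average of both doses 62.6% were lower among genes over 55 and up to 60% GC and 83.6% among those over 60%, the ranges that hold 7 of these 9 keratins. Their median log2 fold change was -0.42 at the lower dose and -0.59 at the higher dose. KRT81, a type II hair keratin, was the highest of them and exceeded KRT8 in every library, with 194 FPKM in vehicle, 114 at the lower dose and 129 at the higher dose. Its log2 fold changes were -0.76 and -0.59. KRT81 and its close copy KRT86 also overlap on opposite strands over 5622 bases, so reads may have been divided between them. KRT86 had 5.75, 3.56 and 3.33 FPKM. KRT34, a type I hair keratin, had 15.8, 13.3 and 13.4 FPKM. KRT10, the type I keratin of the upper epidermis, had 15.1, 14.7 and 15.3 FPKM, and KRT80 had 12.4, 12.5 and 11.7 FPKM, with log2 fold changes between -0.084 and 0.018. That depended on the scaling: averaged over both doses, KRT10 was at 0.10 and KRT80 at 0.075 after rescaling to TPM, at -0.24 and -0.26 with the median ratio to vehicle set to 0, at -0.47 and -0.95 with the length trend removed and at -0.70 and 0.044 with the GC trend removed.

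Of the lower keratins, KRT17, a keratin of stressed epidermis, had 3.96, 2.94 and 2.59 FPKM in vehicle, lower and higher dose. KRT33B had 2.27, 0.76 and 1.33 FPKM and was more than 2-fold lower at the lower dose alone. KRT79 had 1.48, 0.83 and 0.74 FPKM. KRT85, another hair keratin, was listed at 0.17, 4.05 and 0.07 FPKM, so it passed the filter through the lower-dose library alone, and the gene belongs to the cluster of similar hair keratin sequences on chromosome 12. The epidermal keratins KRT14, KRT15 and KRT16 stayed under 0.4 FPKM.

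Among the other intermediate filament genes, 8 of 10 had a row, 4 passed the filter and 2 were more than 2-fold higher at each dose, where 36.3% of all tested genes were. SYNM, which encodes the large filament protein synemin, had 0.70, 1.88 and 1.92 FPKM, with log2 fold changes of 1.31 and 1.34. INA, which encodes the neuronal filament internexin, had 0.72, 2.0 and 1.86 FPKM, with log2 fold changes of 1.36 and 1.26. The medians typical of their GC content were 0.51 and 0.70 at the lower dose. The list's median was 0.99 at the lower dose and 0.67 at the higher dose, against 0.62 over all tested genes.

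The plakins tie filaments to junctions and to other cytoskeletal fibres. PLEC, which encodes plectin and binds vimentin and keratin filaments, had 115, 84.9 and 82.9 FPKM, with log2 fold changes of -0.44 and -0.47. DST (1.34, 3.15 and 3.11 FPKM) and MACF1 (1.47, 3.72 and 3.56 FPKM) were more than 2-fold higher at each dose, where 36.3% of all tested genes were. At the lower dose the log2 fold change was 1.17 for DST, 1.28 for MACF1 and -0.44 for PLEC. The medians typical of their GC content were 1.48, 1.22 and -0.60. DSP was listed at 0.48, 1.22 and 1.36 FPKM and passed the filter only through the rhFGF19 libraries, and the other 3 of the 7 plakin genes did not pass the filter. PLEC transcripts have a GC content of 66.8%, and those of DST, MACF1 and DSP have 41.1%, 46.0% and 48.2%.

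Desmosomes anchor keratin filaments at cell junctions. Of the 14 desmosome genes on the list, 7 had a row, all 7 passed the filter, and 5 were more than 2-fold higher at each dose, where 36.3% of all tested genes were. Of these 5, PKP2 and DSP were under 0.5 FPKM in vehicle and passed the filter only through the rhFGF19 libraries, so that they had to differ. DSG2, a desmosomal cadherin, had 1.3, 4.44 and 3.90 FPKM, PERP had 3.03, 7.10 and 7.73 FPKM, PKP2 was listed at 0.21, 0.77 and 0.54 FPKM and PKP4 had 0.69, 1.64 and 1.69 FPKM. JUP, which encodes plakoglobin, was level at 9.56, 9.22 and 9.84 FPKM, and PKP3, the highest in vehicle, had 9.62, 4.82 and 5.87 FPKM. At the lower dose DSG2 (1.70) and PERP (1.20) lay on either side of the 1.47 that was typical of their GC content.

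Lamin partners of the nuclear envelope also lay on both sides of vehicle. Of 12 genes, 11 passed the filter, with 5 more than 2-fold higher at the lower dose, 7 at the higher dose and none more than 2-fold lower, where 39.5% and 38.6% of all tested genes were higher and 1.75% and 1.47% lower by that much. BANF1, a small chromatin-binding partner of the lamina, had 461, 296 and 301 FPKM. EMD, which encodes emerin and binds lamin A, had 67.0, 46.3 and 45.7 FPKM, and SUN2, which links the lamina to the cytoskeleton, had 61.8, 44.5 and 46.2 FPKM. LBR, the lamin B receptor, had 2.23, 6.79 and 6.17 FPKM. TMPO, which encodes the lamin-binding LAP2 proteins, had 4.20, 13.0 and 13.1 FPKM, and LEMD3 had 0.50, 2.04 and 2.22 FPKM. SYNE2 had 0.67, 1.55 and 1.62 FPKM, and TOR1AIP1 had 1.01, 3.15 and 2.72 FPKM. BANF1 had a log2 fold change of -0.64 at the lower dose where the median typical of its GC content was 0.051. For the other partners named here these values were -0.53 and -0.36 (EMD), -0.47 and -0.48 (SUN2), 1.56 and 1.51 (LBR) and 1.61 and 1.46 (TMPO). They were 1.83 and 1.51 for LEMD3, 1.10 and 0.84 for SYNE2 and 1.55 and 1.22 for TOR1AIP1.

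Prelamin A and lamin B1 are farnesylated, cleaved and methylated at their tails. Of the 5 genes of that pathway all passed the filter, and 2 were more than 2-fold higher at each dose, against 36.3% of all tested genes: FNTA, a farnesyltransferase subunit, with 0.66, 2.03 and 2.01 FPKM, and ZMPSTE24, the prelamin A protease, with 1.77, 5.18 and 5.92 FPKM. ICMT, the methyltransferase, was the highest of them, with 24.5, 49.9 and 44.5 FPKM, and was past 2-fold at the lower dose alone. RCE1 had 17.5, 13.0 and 13.6 FPKM, and FNTB was level at 15.5, 15.7 and 16.6 FPKM.

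**Figure D4:**
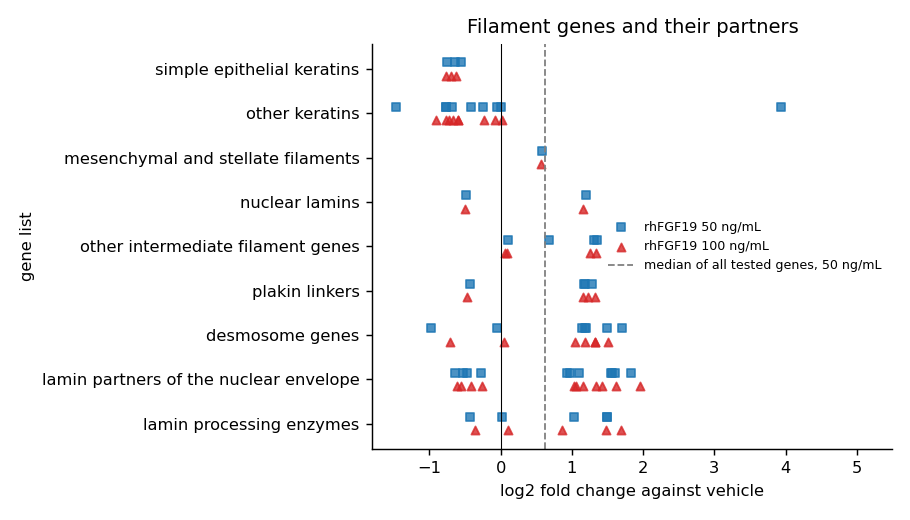
Log2 fold change against vehicle (x) of every gene that passed the filter in 9 lists of filament genes and their partners (y), at the lower (squares) and higher dose (triangles); the dashed line is the median of all tested genes at the lower dose, 0.62. The simple epithelial keratins lie under 0, and most desmosome genes lie above 1.

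Epithelial identity genes did not accompany the keratins. Of 14 such genes 10 had a row and 1 passed the filter, CLDN4, with 1.07, 0.76 and 1.02 FPKM. CDH1, which encodes E-cadherin, was listed at no more than 0.01 FPKM in any library, ESRP1 and MAL2 at no more than 0.02, and the summed level of the list was 1.95, 1.57 and 1.55 FPKM in vehicle, lower and higher dose. Hepatocyte genes were near the floor as well, with HNF4A at no more than 0.01 FPKM, although SERPINA1 had 8.93, 9.62 and 9.11 FPKM and ALB had 2.16, 2.49 and 1.89 FPKM. Their summed level was 11.3, 12.8 and 11.5 FPKM. Of 5 endothelial genes none passed the filter.

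Stellate cell and fibroblast genes were present in part. Of the 18 on the list 17 had a row and 9 passed the filter, with 5 higher than vehicle in both rhFGF19 libraries and 4 lower in both. Of all tested genes, 63.3% were higher and 31.8% lower in both. THY1 had 29.7, 20.6 and 21.1 FPKM, NGFR 13.4, 11.3 and 10.1 FPKM, and ACTA2 8.55, 8.01 and 7.74 FPKM. PDGFRB had 3.86, 5.78 and 5.25 FPKM, HAND2 1.41, 2.28 and 2.52 FPKM, and LHX2 0.88, 1.33 and 1.48 FPKM. TAGLN, a smooth muscle actin-binding protein, had 223, 118 and 126 FPKM, and COL1A1 had 78.4, 108 and 104 FPKM. COL3A1 was more than 2-fold higher at each dose, at 1.79, 4.15 and 4.30 FPKM, where 36.3% of all tested genes were. At the higher dose its log2 fold change was 1.22, under the median of 1.49 that was typical of its GC content. LRAT, the retinol esterase of quiescent stellate cells, was listed at 0.00 in every library, PDGFRA at no more than 0.09 FPKM and COL1A2 at no more than 0.14. The mesenchymal transcription factor genes all passed the filter, but ZEB1 and ZEB2 did so only through the rhFGF19 libraries. TWIST2 was the highest, with 23.4, 18.6 and 20.5 FPKM, and SNAI2 had 2.92, 6.29 and 5.61 FPKM. ZEB1 was listed at 0.28, 1.11 and 0.63 FPKM and ZEB2 at 0.27, 0.73 and 0.69 FPKM.

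The genes whose levels in the 3 libraries lay nearest to those of KRT18, by the largest absolute difference in log2(FPKM + 0.1), were RPSAP58, RPS2P5 and RPS19, at 0.038, 0.042 and 0.043. RPS19 encodes a ribosomal protein and had 371, 219 and 225 FPKM, and RPSAP58 and RPS2P5 are pseudogenes of ribosomal protein genes. At the lower dose RPS19 had a log2 fold change of -0.76, where the median typical of its GC content was -0.13. These values were -0.78 and 0.45 for RPSAP58 and -0.77 and -0.46 for RPS2P5. A departure from genes of similar GC content was thus not particular to keratins. With 3 libraries such likeness is a description of level and order alone.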

How the data were processed

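Poly(A) mRNA of LX-2 cells was sequenced as paired ends, with 1 library each for vehicle and for rhFGF19 at 50 and 100 ng/mL. The values deposited by the authors are FPKM per gene, without read counts, so that depth is unknown. The submitters' processing notes name HISAT2 2.0, StringTie 1.3.0 and Bowtie 0.12.2 and the builds hg19 and mm8 without their roles. However, the deposited coordinates overlapped the GENCODE v29 (GRCh38) gene of the same identifier for 99.9% of 25531 identifiers, and are given here as GRCh38.

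From the deposited FPKM, rows sharing a symbol were summed, and single libraries were set against each other as log2(FPKM + 0.1) for symbols averaging 0.5 FPKM or more. More than 2-fold (1 on the log2 scale) was the study's criterion. No test was possible. GC content and length were medians over the listed transcripts, found for 99.8% of tested symbols, and loess trends used a span of 0.3. The members and gene lists were chosen with earlier results of these data known. Genes were named if they were members, were past 2-fold in the same direction at both doses, were the highest or second highest of their list, or were defining markers near 0; further keratins averaging 0.5 FPKM or more, the highest pseudogenes and overlapping genes of each member and the genes most like KRT18 were named too. SUN2, RCE1, MUC1, WT1, CALB2, KRT14, KRT15, KRT16, ZEB1, THY1, NGFR, ACTA2, PDGFRB, HAND2 and LHX2 were named after their values were seen. Some sequences and the genes most like VIM are not reported here. 13 alternatives were run. Python 3.11.15, NumPy 2.4.6, pandas 2.3.3, statsmodels 0.14.6 and matplotlib 3.10.9 were used, and the steps were tested on simulated data.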

Additional observations from a re-analysis of the deposited data

How the results depend on the processing

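The directions of KRT8, KRT18, KRT7, VIM, LMNA and LMNB1, averaged over both doses, were the same under all 12 alternatives run for single genes, with ranges of -1.0 to -0.35 for KRT8, -1.23 to -0.43 for KRT18, -1.16 to -0.32 for KRT7, 0.11 to 0.95 for VIM, -0.95 to -0.089 for LMNA and 0.13 to 1.3 for LMNB1. Some of these alternatives could not change a direction. A pseudocount of 1 or of 0.01 cannot change the sign of a fold change. The single-gene values stayed the same without a filter, with a mean of at least 1 FPKM and with the highest row kept for shared symbols. Added pseudogene rows changed KRT8 and KRT18 alone. VIM, with log2 fold changes of 0.58 and 0.56, lay under the median of all tested genes, 0.62 at each dose. Shifts were called moved where they exceeded 0.32, the standard deviation of the difference between the rhFGF19 libraries over all tested genes. Over genes averaging 5 FPKM or more, as these members do, it was 0.14, so 0.32 is a wide mark for them. Of the single-gene results, 16 moved and 56 did not. Of the counts and group medians, 24 moved and 64 did not, with a count called moved where it differed more than 1.5-fold. The values nearest to 0 for VIM, LMNA and LMNB1 were smaller in size than 0.32. LMNB1 was no longer past 2-fold, leaving 0 members higher at the lower dose and 0 at the higher dose, under quantile normalization, with the median ratio to vehicle set to 0, and with the GC trend, the length trend or both removed. Members more than 2-fold lower numbered 1 at the lower dose and 1 at the higher dose with quantile normalization, 2 and 3 with the length trend removed, and 1 at the higher dose without a filter, which was KRT19. With a threshold of 1.5-fold, 2 members at the lower dose and 3 at the higher dose were lower, where 13.5% and 12.5% of all tested genes were.

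The median log2 fold change of the simple epithelial keratins was -0.66 and became -1.08 with the length trend removed, -0.88 with the median ratio set to 0, -0.43 with quantile normalization, -0.42 with the GC trend removed and -0.35 with both trends removed. That of the mesenchymal filaments, which rests on VIM alone, was 0.57 and became 0.95 with quantile normalization, 0.11 with the GC trend removed, 0.19 with the length trend removed and 0.18 with both removed. The difference between these medians (keratins minus mesenchymal) was -1.23 and became -0.53 with the GC trend removed and -0.52 with both removed. Trend removal and quantile normalization centre the fold changes by construction, so the median over all genes went from 0.62 to 0.0035 with the GC trend removed and to 0.091 with quantile normalization. It was still 0.40 with the median ratio set to 0, which used only symbols of at least 1 FPKM in every library. Among genes past 2-fold by their average over both doses, the share that was higher was 96.9% in the deposited values, 41.5% with the GC trend removed, 46.9% with the length trend removed, 48.3% with both removed, 47.3% with quantile normalization and 85.2% with the median ratio set to 0. Other causes were not tested. No paired analysis was possible because each condition had 1 library. Depth is unknown, so values under about 0.5 FPKM carry no direction.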

Other observations

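Markers of other keratin-bearing cells of the liver were also measured. Of 9 bile duct cell genes 4 had a row and 3 passed the filter: SOX9 had 4.77 FPKM in vehicle, 9.96 at the lower dose and 9.64 at the higher dose, SPP1 had 0.55, 2.94 and 2.07 FPKM, and MUC1 was level at 0.91, 0.92 and 0.86 FPKM. Of 7 mesothelial genes 6 had a row and 4 passed. BNC1 had 2.62, 7.22 and 7.36 FPKM, MSLN had 3.28, 2.77 and 2.08 FPKM, WT1 had 0.78, 1.41 and 1.31 FPKM, CALB2 had 0.61, 0.53 and 0.89 FPKM, and UPK3B was listed at no more than 0.03 FPKM. Of 5 immune cell genes 3 had a row and 2 passed: CD68, a lysosomal protein gene that fibroblasts also express, had 47.5, 44.2 and 39.8 FPKM, and CD14 had 4.28, 2.76 and 2.54 FPKM. Their part in the keratin values was not tested.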
